A study of Mus musculus with 6 samples.

Results

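Transcripts of 8 lipid carrier genes were followed in cortical thymic epithelial cells (cTEC). *Apoa1*, *Apoa4*, *Apoc3*, *Apob*, *Mttp*, *Fabp1* and *Fabp2* serve the packaging and handling of fat in the small intestine, and *Apoe*, an apolipoprotein of many tissues, was set beside them. All 8 were found by symbol among the 39179 genes of the count table. The set was chosen by its place in intestinal fat transport and with the differences between the subsets in these libraries known, so those differences are given as a description and no test of them is used as support. The libraries came from untreated *Cxcl12*DsRed knockin reporter mice of a C57BL/6 background at 10 weeks of age, whose cells turn red with the DsRed protein where the chemokine gene *Cxcl12* is expressed. Cells negative for CD45 and UEA1 binding and positive for EpCAM1 and Ly51 were sorted into *Cxcl12*DsRed- cTEC (3 libraries, DsRed- cTEC for short) and *Cxcl12*DsRed+ cTEC (3 libraries, DsRed+ cTEC). Experiments A, B and C each gave 1 library per subset, the reporter allele is carried by both, and how many mice stand behind a library is unknown here. RNA came from sorted pools, so fewer cells with a transcript and less of it per cell cannot be told apart.

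In the small intestine, absorbed fat leaves the enterocyte, the absorptive cell, in chylomicrons. MTP, the protein of *Mttp*, loads lipid onto apolipoprotein B, the scaffold of the particle, and apolipoproteins A-I, A-IV and C-III join its surface. L-FABP (*Fabp1*) and I-FABP (*Fabp2*) bind fatty acids in the cytosol. Thymic epithelium is known for cells in its medulla that carry transcripts of peripheral tissues, gut and liver among them, while Ly51+UEA1- cells are classed as cortical.

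The depth was 34574900 to 44969195 counts in genes in DsRed- cTEC and 38875590 to 51042679 in DsRed+ cTEC. Levels are given in CPM, the counts per 1000000 of a library size scaled by TMM in edgeR, and 0 counts allow a level of up to 0.0567 to 0.0913 CPM, depending on the library (3 counts; counting error only). The reporter transcript matched the labels, at 17.6 to 27.8 CPM in DsRed- cTEC, against 860 to 2059 CPM in DsRed+ cTEC. The DsRed- library of C stood apart in the intestinal genes. All 7 together held 306, 110 and 8.19 CPM in DsRed- cTEC of A, B and C, against 3.33, 5.74 and 8.32 CPM in DsRed+ cTEC. The sum was thus far above every DsRed+ library in DsRed- cTEC of A and B, and within the DsRed+ range in those of C.

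*Apoa1* (chromosome 9, 46228580 to 46230466, plus strand), *Apoc3* (46232933 to 46235636, minus strand) and *Apoa4* (46240696 to 46243459, plus strand) are neighbours on GRCm38, the genome also called mm10, and *Apoa5* follows them on that chromosome. *Apoe* (chromosome 7, 19696109 to 19699188, minus strand) is the neighbour of *Apoc1*, *Apoc4* and *Apoc2*. *Apob* lies on chromosome 12 (7977648 to 8016835, plus strand) and *Fabp1* on chromosome 6 (71199827 to 71205023, plus strand). *Mttp* (138089854 to 138144968, minus strand) and *Fabp2* (122895072 to 122899506, plus strand) are on chromosome 3.

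Promoters of 7 of the 8 genes, *Apoc3* being the other one, were matched by symbol in RefSeq (GRCm38.p6; 250 bases before to 50 after a start site). Those of the neighbours *Apoa1* and *Apoa4* are shown because these genes had the highest intestinal levels and appeared in the same libraries, and those of *Fabp1* and *Fabp2* because they hold letters of the site bound by the intestinal CDX factors. Capitals mark the matches to any of 4 motifs on either strand.
*Apoa1*, chr9:46228380-46228679, plus strand: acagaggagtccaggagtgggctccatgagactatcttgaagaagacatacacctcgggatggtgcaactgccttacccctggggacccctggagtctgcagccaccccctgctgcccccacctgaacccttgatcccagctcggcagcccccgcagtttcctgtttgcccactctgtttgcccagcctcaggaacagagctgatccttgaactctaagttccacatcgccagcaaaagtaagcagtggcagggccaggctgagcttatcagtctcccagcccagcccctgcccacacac
*Apoa4*, chr9:46240594-46240893, plus strand: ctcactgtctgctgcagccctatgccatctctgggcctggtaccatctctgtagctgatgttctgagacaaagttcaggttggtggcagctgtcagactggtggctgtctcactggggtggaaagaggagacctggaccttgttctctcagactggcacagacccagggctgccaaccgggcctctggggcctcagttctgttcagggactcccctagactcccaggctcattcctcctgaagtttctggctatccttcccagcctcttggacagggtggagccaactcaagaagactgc
*Fabp1*, chr6:71199629-71199928, plus strand: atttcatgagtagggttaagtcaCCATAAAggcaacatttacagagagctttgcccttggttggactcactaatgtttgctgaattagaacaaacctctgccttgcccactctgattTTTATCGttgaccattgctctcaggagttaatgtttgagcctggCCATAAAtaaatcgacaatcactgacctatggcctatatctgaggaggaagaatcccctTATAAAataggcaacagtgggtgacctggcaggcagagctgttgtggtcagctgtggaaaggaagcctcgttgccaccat
*Fabp2*, chr3:122894822-122895121, plus strand: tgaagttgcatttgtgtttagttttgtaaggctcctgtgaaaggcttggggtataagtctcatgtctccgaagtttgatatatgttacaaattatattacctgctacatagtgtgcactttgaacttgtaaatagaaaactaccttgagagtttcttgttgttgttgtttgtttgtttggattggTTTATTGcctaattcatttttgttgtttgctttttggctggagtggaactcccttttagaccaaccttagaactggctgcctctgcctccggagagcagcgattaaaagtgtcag

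The CDX site was searched as TTTATNG on both strands. It was present in 3 of the 7 genes (*Apob*, *Fabp1* and *Fabp2*), beside 10.9% of the 32851 promoters of the table. The shares given here count promoters and not genes, and 3 promoters were listed for *Apoe*, so they are not a like measure for the 7 genes. *Fabp1* held it at −227 and −89 on the minus strand and at −133 on the plus strand, counted in bases from its start site, and the match of *Apob* overlapped its TATA box. The TATA box, searched as TATAAA, was present in *Fabp1*, in *Apob* and in 1 of the 3 promoters listed for *Apoe* (13.6% of all promoters). Neither the core of the HNF4 site, AAAGTCC (4.21% of all promoters), nor the GATA site, which is spelled AGATAA (11.2%), was found in any of the 7. The windows of *Apoa1*, *Apoa4* and *Mttp* held none of the 4 motifs.

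Surface apolipoproteins of the chylomicron were present in DsRed- cTEC of A and B and nearly missing from DsRed+ cTEC. *Apoa1*, the gene of the main protein of high density lipoprotein, had 5833, 589 and 0 counts in DsRed- cTEC of A, B and C, against 2, 12 and 2 counts in DsRed+ cTEC. These were levels of 135, 17.9 and 0 CPM in DsRed- cTEC and 0.0378, 0.250 and 0.0515 CPM in DsRed+ cTEC. *Apoa1* was thus high in a pair of DsRed- libraries and not read in the other one, and the subsets overlapped. In A it was 3563-fold higher in DsRed- cTEC (95% counting interval 986 to 29431) and in B 71.6-fold higher (40.7 to 139), and in C both counts were too low for a ratio.

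*Apoa4*, whose protein is made mainly by the intestine, had 3953, 1507 and 3 counts in DsRed- cTEC of A, B and C, against 26, 2 and 1 counts in DsRed+ cTEC. The level was 91.3, 45.9 and 0.0738 CPM in DsRed- cTEC, against 0.491, 0.0417 and 0.0258 CPM in DsRed+ cTEC. The DsRed- library of C lay inside the DsRed+ range, so this gene overlapped too. The order of the neighbours differed between libraries: per kilobase of exon, *Apoa1* stood at 109 CPM and *Apoa4* at 50.3 CPM in DsRed- cTEC of A, while in those of B *Apoa1* stood at 14.5 CPM and *Apoa4* at 25.3 CPM. Of the 1815 exon bases of *Apoa4*, 632 are shared with the antisense gene *Gm10680*, which had 0 counts.

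Of the 15576 genes that passed a filter on low counts, 9.73% were higher in each DsRed- library than in every DsRed+ library. *Apoc3*, the gene of an inhibitor of lipoprotein lipase, was the only 1 of the 7 intestinal genes with this pattern. It had 615, 556 and 182 counts in DsRed- cTEC of A, B and C (14.2, 16.9 and 4.48 CPM), against 1, 1 and 0 counts in DsRed+ cTEC (0.0189, 0.0209 and 0 CPM). Over the pooled counts the level was 809-fold higher in DsRed- cTEC (95% counting interval 223 to 6685). In C, where *Apoa1* and *Apoa4* were near 0, *Apoc3* was at least 57.9-fold higher in DsRed- cTEC, from a floor of 3 counts in the DsRed+ library. It made up 54.7% of the summed CPM of the 7 genes in DsRed- cTEC of C and 4.64% in those of A.

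The scaffold and its loading protein did not follow the surface apolipoproteins closely. *Apob* had 277, 0 and 0 counts in DsRed- cTEC of A, B and C, against 9, 27 and 1 counts in DsRed+ cTEC (6.40, 0 and 0 CPM against 0.170, 0.563 and 0.0258 CPM). It was 37.6-fold higher in DsRed- cTEC of A (95% counting interval 19.5 to 83.1) and at least 6.17-fold lower in those of B. So the DsRed- library of B, which held *Apoa1*, *Apoa4* and *Apoc3*, had no count of the gene of the protein on which chylomicrons are built. *Apob* has 13934 exon bases, and per kilobase of exon it reached 0.459 CPM at its highest.

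*Mttp* was read in every library. It had 2053, 587 and 134 counts in DsRed- cTEC of A, B and C (47.4, 17.9 and 3.30 CPM), against 135, 200 and 315 counts in DsRed+ cTEC (2.55, 4.17 and 8.12 CPM). Its direction turned between experiments: DsRed- cTEC were 18.6-fold higher in A (95% counting interval 15.6 to 22.3) and 4.28-fold higher in B (3.64 to 5.05), and 2.46-fold lower in C. Most of the intestinal sum of DsRed+ cTEC was *Mttp*, at 72.7% to 97.5%. Of the 6206 exon bases of *Mttp*, 457 are shared with *Trmt10a* on the other strand, which had 1251 counts over the 6 libraries, and without strand in the counting the reads there cannot be told apart.

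The fatty acid binding genes were low. *Fabp1*, which liver and intestine express, had 277, 381 and 13 counts in DsRed- cTEC of A, B and C (6.40, 11.6 and 0.320 CPM), against 2, 33 and 0 counts in DsRed+ cTEC (0.0378, 0.688 and 0 CPM). Each experiment had more in DsRed- cTEC, by 169-fold in A (95% counting interval 46.4 to 1404), 16.8-fold in B (11.8 to 24.8) and at least 4.14-fold in C. The subsets still overlapped, because the DsRed- library of C held less than the DsRed+ library of B. *Fabp2*, expressed mainly in the intestine, had 239, 9 and 1 counts in DsRed- cTEC (5.52, 0.274 and 0.0246 CPM), against 1, 0 and 4 counts in DsRed+ cTEC (0.0189, 0 and 0.103 CPM). Of its 249 counts in DsRed- cTEC, 239 thus came from 1 library, and the DsRed- library with the most *Fabp1*, that of B, held little *Fabp2*.

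*Apoe*, the gene of a ligand through which lipoprotein remnants bind their receptors, was abundant in every library. It had 334158, 263057 and 380486 counts in DsRed- cTEC of A, B and C (7717, 8003 and 9359 CPM), against 440302, 372859 and 173621 counts in DsRed+ cTEC (8322, 7777 and 4474 CPM). The subsets overlapped, with a mean of 8360 ± 877 CPM in DsRed- cTEC and 6858 ± 2082 CPM in DsRed+ cTEC (SD, n = 3 each). Its log2 fold change was 0.29 ± 0.27 (SE), and −0.07 without experiment C.

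**Figure D1:**
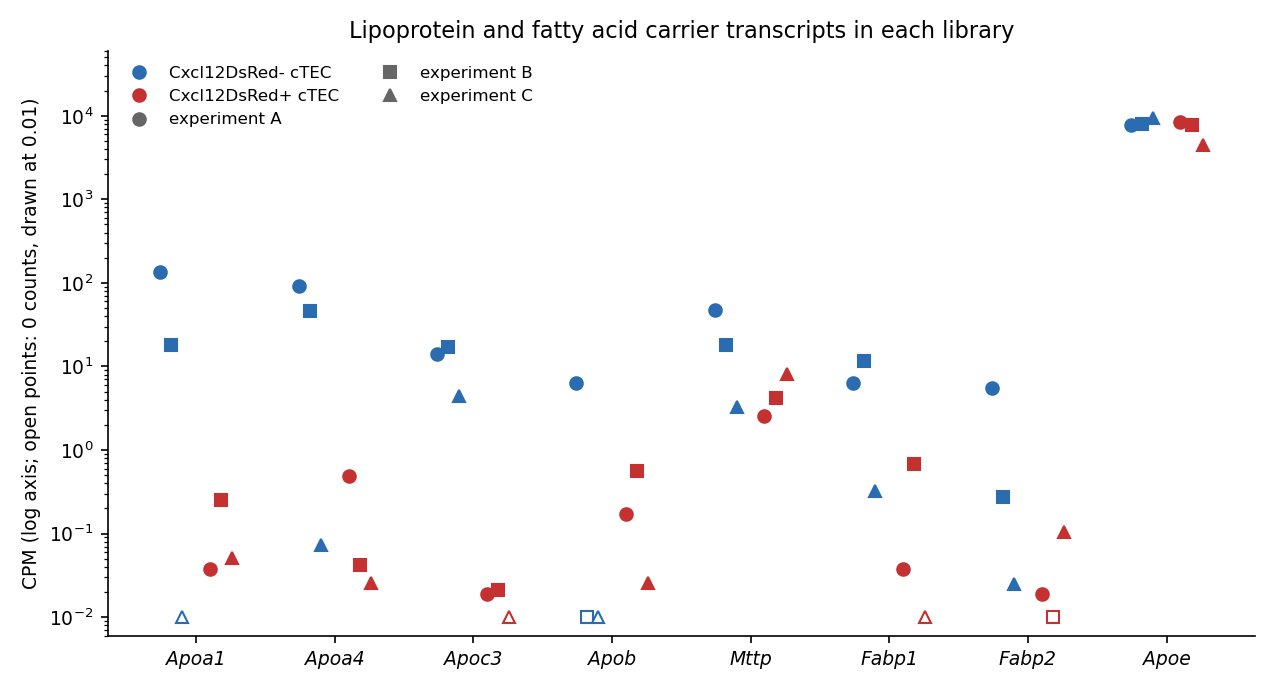
CPM of the 8 genes on a log axis, with DsRed- cTEC (blue) left of DsRed+ cTEC (red). A point is a library, its shape the experiment, and open points at 0.01 stand for 0 counts. Among the intestinal genes, *Apoc3* has all blue points above all red ones, the blue point of C lies low for *Apoa1*, *Apoa4*, *Mttp*, *Fabp1* and *Fabp2*, and *Apoe* lies between 4474 and 9359 CPM in every library.

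Of the 8 genes, 6 were among the 15576 that passed the filter on low counts, all but *Apob* and *Fabp2*. A gene read only in DsRed- cTEC passes such a filter through that subset alone, so the 6 do not stand for all 8. Their log2 fold changes of DsRed- over DsRed+ cTEC were 8.77 ± 2.61 for *Apoa1*, 7.87 ± 2.31 for *Apoa4*, 9.46 ± 1.25 for *Apoc3*, 2.21 ± 0.97 for *Mttp* and 4.64 ± 2.07 for *Fabp1* (SE, 3 libraries a subset), beside that of *Apoe*. In edgeR's quasi-likelihood test at an adjusted p of 0.05, which 0.623% of the genes tested were past (0.449% as higher, 0.173% as lower), 1 of the 6 was past it as higher, *Apoc3*, and none as lower. By edgeR's likelihood ratio test (3.53% higher, 2.12% lower) 3 were past it, *Apoa1*, *Apoa4* and *Apoc3*, all as higher. The subsets did not overlap in 1 of the 6, *Apoc3*, as in 9.73% of the genes tested with DsRed- cTEC above and 9.32% with DsRed- cTEC below. Since this contrast was known when the genes were chosen, nothing is read from these counts.

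The DsRed- libraries were spread more widely in *Apoa4* than in most genes. Over these 3 libraries the SD of log2 CPM, with a prior count of 0.5, was 5.54 for *Apoa4* (0.482% of the genes tested had a larger one). *Apoa1*, with 0 counts in 1 of them, has an SD that the prior count sets, and it is left out. The SD was 2.75 for *Fabp1*, 1.94 for *Mttp* and 1.04 for *Apoc3*, beside a median of 0.64 over all genes tested. *Apoe*, at 0.15, was steadier than most, with 92.7% of genes above it.

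Both kinds of pattern were found among the neighbours of *Apoe*. *Apoc1*, 6.53 kb from its start site, averaged 71.6 ± 13.5 CPM in DsRed- cTEC and 48.1 ± 17.5 CPM in DsRed+ cTEC (SD, n = 3 each), with overlap (log2 fold change 0.57 ± 0.32 (SE), adjusted p in edgeR = 0.585). *Apoc2*, the gene of the activator of lipoprotein lipase, 21.2 kb from that start site, had 19.4, 20.1 and 3.03 CPM in DsRed- cTEC of A, B and C, against 0.0189, 0.167 and 0.0258 CPM in DsRed+ cTEC. *Apoc2* thus lay close to *Apoc3* in the order of the libraries, with no overlap of the subsets, and did not pass the quasi-likelihood test (log2 fold change 7.58 ± 1.38 (SE), adjusted p in edgeR = 0.0723). *Apoc4*, between them, had 0 counts in all 6 libraries. *Apoa5*, 40.1 kb from the start site of *Apoa1*, had 1.64 CPM in DsRed- cTEC of B and 0 counts in the other libraries. *Apoc2* shares 646 of its 813 exon bases with an annotated readthrough gene that was not analysed here.

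**Figure D2:**
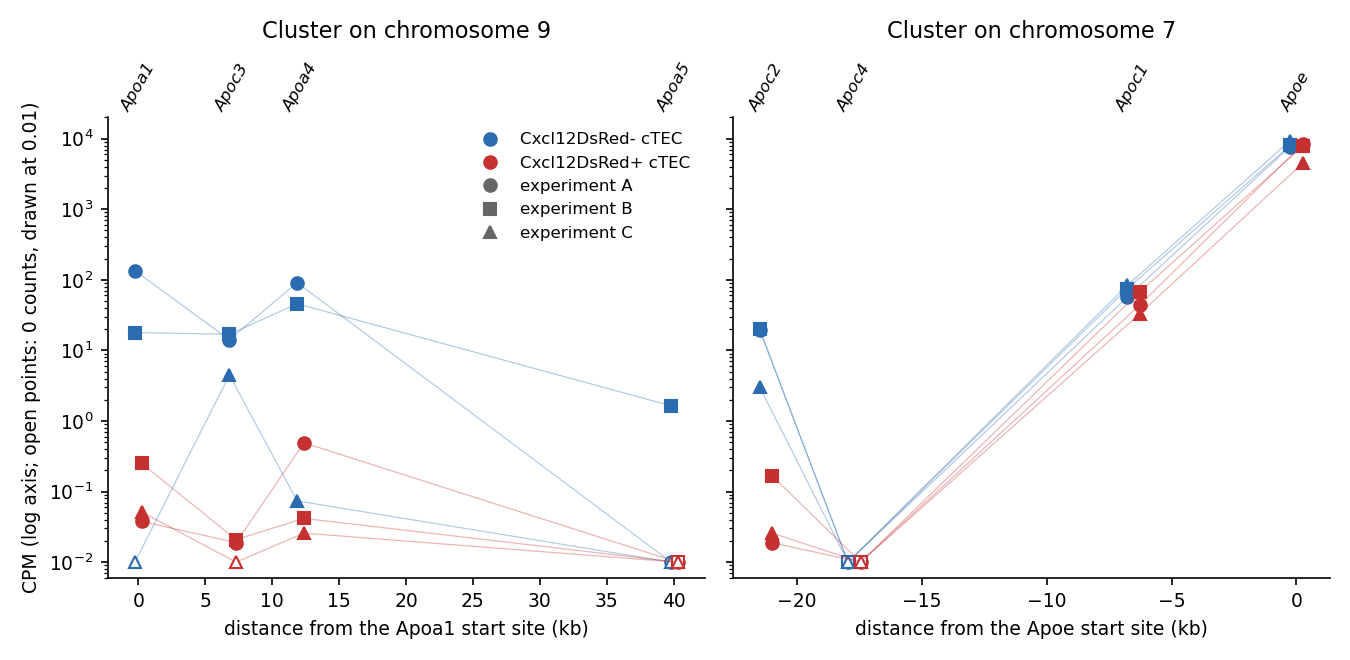
CPM on a log axis against the distance of each gene's start site from that of *Apoa1* (left) or *Apoe* (right) in kb, with DsRed- cTEC in blue and DsRed+ cTEC in red. Shapes are experiments, thin lines join the values of a library, and open points at 0.01 stand for 0 counts. *Apoe* and *Apoc1* overlap between the subsets, while *Apoc2* and *Apoc3* do not.

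The genes closest to each member in pattern were found by the root mean square difference of log2 CPM over the 6 libraries, after each gene was centred on its mean. For *Apoc3* they were *Cdhr5* (a difference of 0.40), *Kcnj16* (0.52) and *Gabrp* (0.54). For *Fabp1* they were *Cryba2* (0.48), *Cdx1* (0.65) and *Syt1* (0.87). *Mttp* was closest to *Cfap157* (0.39), *Degs2* (0.47) and *Cfap126* (0.49), and *Apoe* to *Atat1* (0.05), *H2-DMb1* (0.06) and *Mxi1* (0.08). *Apoa1* had no match as near, with *Insm1* at 1.74, *F10* at 1.92 and *Bcl2a1b* at 1.95, and for *Apoa4* the closest were ENSMUSG00000093809 (0.93), *Gm281* (1.27) and *Il1f5* (1.32). A prior count of 0.5 sets the value wherever a library had 0 counts. Differences of genes with such a library, *Apoa1*, *Apoc3* and *Fabp1* among the members tested, depend on it. Between members the smallest differences were those of *Mttp* and *Apoe* (1.57), *Apoa1* and *Apoa4* (2.04) and *Apoc3* and *Fabp1* (2.46). The closest genes were picked from all genes tested and the pairs of members are few, so their differences are not set against each other. These are descriptions of 6 shared libraries.

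Of 11 other genes of chylomicron assembly and export, 9 were tested and none passed in either direction by the quasi-likelihood or the likelihood ratio test (median log2 fold change 0.11, beside 0.02 over all genes tested). *Mia3*, whose protein loads large cargo at the endoplasmic reticulum, averaged 108 ± 30.4 CPM in DsRed- cTEC and 54.6 ± 7.86 CPM in DsRed+ cTEC (SD, n = 3 each; log2 fold change 0.99 ± 0.28 (SE), adjusted p in edgeR = 0.185). *Apobec1*, the gene of the enzyme that edits *Apob* mRNA, averaged 48.5 ± 27.1 CPM in DsRed- cTEC and 21.4 ± 2.30 CPM in DsRed+ cTEC (SD, n = 3 each; log2 fold change 1.18 ± 0.43 (SE), adjusted p in edgeR = 0.339). The gene of its cofactor, *A1cf*, had at most 0.0304 CPM in any library, and *Pla2g12b* had 0 counts in all 6. *Cideb*, whose protein helps lipoproteins take up lipid, was low and had no overlap of the subsets, with 1.52, 2.68 and 2.14 CPM in DsRed- cTEC of A, B and C, against 0.132, 0.334 and 0 CPM in DsRed+ cTEC (log2 fold change 3.73 ± 1.51, SE), and did not pass.

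Of 15 genes of lipid uptake and re-esterification, 11 were tested and none passed the quasi-likelihood test, while 1 was higher and 2 were lower by the likelihood ratio test (median log2 fold change 0.07). *Cd36*, a fatty acid receptor of enterocytes and of capillary endothelium, had 11.6, 1.80 and 8.31 CPM in DsRed- cTEC of A, B and C, against 199, 246 and 2153 CPM in DsRed+ cTEC (log2 fold change −6.90 ± 1.33 (SE), adjusted p in edgeR = 0.0827). *Scarb1*, the receptor for high density lipoprotein, had 36.9, 18.7 and 7.18 CPM in DsRed- cTEC, against 147, 184 and 1346 CPM in DsRed+ cTEC (log2 fold change −4.74 ± 1.11 (SE), adjusted p in edgeR = 0.118). Both were highest in the DsRed+ library of C, with no overlap of the subsets, and were the genes lower by the likelihood ratio test. The gene higher by that test was *Soat2*, of an enzyme that esterifies cholesterol in intestine and liver, with 260, 70 and 24 counts in DsRed- cTEC, against 6, 0 and 0 counts in DsRed+ cTEC (log2 fold change 6.12, adjusted p in edgeR's quasi-likelihood test = 0.271). *Mogat2* and *Npc1l1*, with which enterocytes rebuild triglyceride and take up cholesterol, had at most 0.0773 and 0.0304 CPM.

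Among 13 other cytosolic lipid carriers, 9 were tested and 1 passed, *Rbp7*, which fell (median log2 fold change 0.91; 1 higher and 3 lower by the likelihood ratio test). *Rbp7*, a retinol binding protein gene, had 0.139, 0.0304 and 0.0738 CPM in DsRed- cTEC of A, B and C, against 15.4, 38.9 and 235 CPM in DsRed+ cTEC (log2 fold change −10.12 ± 1.43 (SE), adjusted p in edgeR = 0.0444; 0.0699 when blocked on the experiment). *Fabp4*, a carrier of fat cells and capillary endothelium, had 96.1, 123 and 17.9 CPM in DsRed- cTEC, against 210, 415 and 3628 CPM in DsRed+ cTEC (log2 fold change −4.17 ± 1.27 (SE), adjusted p in edgeR = 0.232). *Fabp5*, a carrier of epidermis, had 238, 488 and 157 CPM in DsRed- cTEC, against 1138, 2041 and 1168 CPM in DsRed+ cTEC (log2 fold change −2.30 ± 0.47 (SE), adjusted p in edgeR = 0.0923; 0.0455 when blocked on the experiment, which is past the threshold). *Fabp4* and *Fabp5* had lower values in DsRed- cTEC in each experiment, while *Fabp1*, whose highest level was 11.6 CPM, had higher ones. Of 11 other apolipoproteins, 5 were tested and none passed the quasi-likelihood test, and 2 were higher by the likelihood ratio test (median log2 fold change 0.57). *Apod*, a lipocalin, had 33.2, 153 and 105 CPM in DsRed- cTEC, against 10.4, 19.2 and 35.8 CPM in DsRed+ cTEC (log2 fold change 2.15 ± 0.66 (SE), adjusted p in edgeR = 0.236).

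Of 16 lipoprotein receptors, lipases and transfer proteins, 14 were tested and none passed the quasi-likelihood test, while 3 were higher and 2 lower by the likelihood ratio test (median log2 fold change 0.23). *Lsr*, a receptor of epithelia for triglyceride-rich lipoproteins, averaged 125 ± 29.8 CPM in DsRed- cTEC and 39.6 ± 10.6 CPM in DsRed+ cTEC (SD, n = 3 each; log2 fold change 1.65 ± 0.30 (SE), adjusted p in edgeR = 0.0717). *Gpihbp1*, whose protein holds lipoprotein lipase on capillary endothelium, had 2.84, 3.38 and 2.29 CPM in DsRed- cTEC, against 36.7, 73.2 and 548 CPM in DsRed+ cTEC (log2 fold change −6.27 ± 1.15 (SE), adjusted p in edgeR = 0.0723). Of 7 genes of sterol sensing and efflux, a pathway known to regulate *Apoe* in macrophages, none passed by either edgeR test (median log2 fold change −0.22). The smallest p among them were those of *Nr1h3* (log2 fold change −1.74 ± 0.88 (SE), adjusted p in edgeR = 0.537) and *Srebf1* (log2 fold change −0.45 ± 0.26 (SE), adjusted p in edgeR = 0.592).

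**Figure D3:**
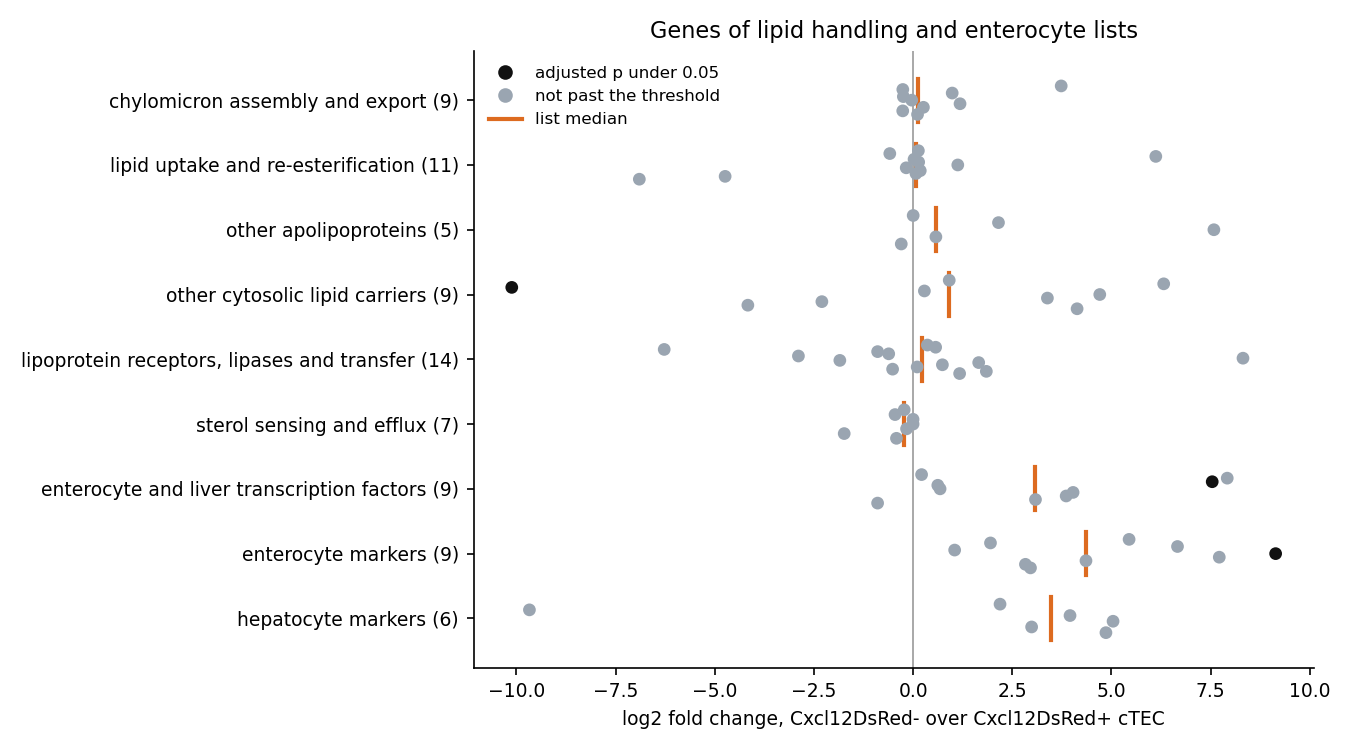
Log2 fold change of DsRed- over DsRed+ cTEC for the genes tested of 9 lists, with the number tested beside each name. A point is a gene, black where its adjusted p was under 0.05 (*Rbp7*, *Foxa1* and *Cdhr5*), and the orange bar is the list median. The medians of export, uptake and sterol sensing lie near 0 (0.11, 0.07 and −0.22) and that of enterocyte markers at 4.36. Genes such as *Foxa1* and *Cdhr5* passed the filter on low counts through DsRed- cTEC alone, so a median does not stand for a whole list. The hepatocyte gene at the far left is *Cps1*, with 0 counts in DsRed- cTEC, whose fitted value depends on the prior count.

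Factors that drive the enterocyte and liver programs were read in part. Of 16, 9 were tested and 1 passed, *Foxa1*, which rose (median log2 fold change 3.09; 2 higher and none lower by the likelihood ratio test). *Foxa1*, a pioneer factor of gut and liver epithelium, had 20.6, 13.5 and 6.69 CPM in DsRed- cTEC of A, B and C, against 0.0945, 0.0626 and 0.0515 CPM in DsRed+ cTEC (log2 fold change 7.54 ± 0.90 (SE), adjusted p in edgeR = 0.0374; 0.0735 when blocked on the experiment). *Hnf4a*, known as a regulator of *Apoa1*, *Apoc3*, *Apob* and *Mttp*, had 0.0693, 0.365 and 1.06 CPM in DsRed- cTEC, against 0.246, 2.48 and 0.0515 CPM in DsRed+ cTEC (log2 fold change −0.89 ± 1.59 (SE), adjusted p in edgeR = 0.922). Its paralog *Hnf4g*, which the intestine expresses, had 8.61, 16.4 and 2.66 CPM in DsRed- cTEC, against 2.93, 0.292 and 0.0258 CPM in DsRed+ cTEC (log2 fold change 3.09 ± 1.59 (SE), adjusted p in edgeR = 0.544). *Hnf4g* had the higher value in DsRed- cTEC in each experiment, with overlap of the subsets, while *Hnf4a* was low and had it in C alone.

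*Cdx1*, a homeobox factor of the intestine, had 8.78, 26.3 and 1.06 CPM in DsRed- cTEC of A, B and C, against 0.227, 1.92 and 0.0515 CPM in DsRed+ cTEC (log2 fold change 4.03 ± 1.67 (SE), adjusted p in edgeR = 0.415). It was highest in B and lowest in C among the DsRed- libraries, as *Fabp1*, *Apoc3* and *Hnf4g* were. *Apob* and *Fabp2*, the other members with the CDX site, were highest in A and had 0 and 0.274 CPM in DsRed- cTEC of B. The part of *Cdx1* in the levels of the members was not tested. *Cdx2*, the main intestinal CDX factor, had 44 counts in DsRed- cTEC of A and at most 5 in any other library, and *Creb3l3* and *Gata5* had 0 counts in all 6.

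Enterocyte markers were higher in DsRed- cTEC in part, and the brush border enzyme genes among them differed in level. Of 16 markers, 9 were tested, 1 passed as higher and none as lower (6 higher and none lower by the likelihood ratio test). All 9 had a positive log2 fold change and the median was 4.36. Markers read almost only in DsRed- cTEC, such as *Cdhr5* and *Slc5a1*, passed the filter on low counts through that subset alone. The filter thus partly sets this direction and median, and the 9 do not stand for all 16. *Cdhr5*, the gene of a cadherin that links microvilli, rose: it had 90.6, 57.4 and 25.6 CPM in DsRed- cTEC of A, B and C, against 5, 6 and 3 counts in DsRed+ cTEC (log2 fold change 9.14 ± 0.69 (SE), adjusted p in edgeR = 0.0295; 0.0222 when blocked on the experiment). Its partner *Cdhr2* had 4329, 1231 and 1988 counts in DsRed- cTEC, against 34, 10 and 0 counts in DsRed+ cTEC (log2 fold change 7.72 ± 1.23 (SE), adjusted p in edgeR = 0.0568). By contrast, the intestinal alkaline phosphatase gene *Alpi* had 0 counts in all 6 libraries, and the genes of lactase (*Lct*) and sucrase-isomaltase (*Sis*) had at most 0.785 and 5.20 CPM. Some other enzyme genes of the list went higher. *Mep1a* had 8.13, 12.0 and 0.0246 CPM in DsRed- cTEC of A, B and C, against 0.0945, 0 and 0.0258 CPM in DsRed+ cTEC. *Anpep* had 8.31, 11.4 and 24.1 CPM, against 9.22, 4.92 and 7.04 CPM, with overlap. *Krt20*, a keratin gene, had 63.4, 34.3 and 23.9 CPM in DsRed- cTEC, against 0.926, 0.167 and 1.70 CPM in DsRed+ cTEC (adjusted p in edgeR = 0.0674). The libraries that held the members thus held some transcripts of microvilli, and brush border enzyme genes at differing levels.

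Hepatocyte markers were read in part. Of 11 hepatocyte markers, 6 were tested and none passed the quasi-likelihood test, while 2 were higher and 1 was lower by the likelihood ratio test (median log2 fold change 3.47). Albumin (*Alb*) had 1.89 CPM in DsRed- cTEC of B and at most 0.0209 CPM elsewhere, and *Fga* and *Fgb*, of fibrinogen, had 0 counts throughout. The third fibrinogen gene, *Fgg*, had 21.6, 12.1 and 9.10 CPM in DsRed- cTEC of A, B and C, against 0.775, 1.92 and 0.0515 CPM in DsRed+ cTEC, with no overlap (log2 fold change 3.96 ± 1.23 (SE), adjusted p in edgeR = 0.242), and *Ttr*, the transthyretin gene, had 4.64, 7.42 and 0.0246 CPM in DsRed- cTEC, against 0.0189, 0.0834 and 0.309 CPM in DsRed+ cTEC (log2 fold change 4.86 ± 1.99 (SE), adjusted p in edgeR = 0.408). *Trf*, the transferrin gene, held most of that list's sum in DsRed- cTEC, with 749, 189 and 96.5 CPM in DsRed- cTEC, against 8.20, 19.2 and 3.99 CPM in DsRed+ cTEC (log2 fold change 5.04 ± 0.99 (SE), adjusted p in edgeR = 0.0869). *Cps1*, the gene of an enzyme of the urea cycle, had 0 counts in DsRed- cTEC and was at least 30.5-fold lower there, from a floor of 3 counts per library (adjusted p in edgeR = 0.0838).

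Leaving out the DsRed- or the DsRed+ library of A or of B left 0 genes past the quasi-likelihood threshold among all genes tested, so the calls of *Rbp7*, *Foxa1* and *Cdhr5* were lost in those fits, in which 1460 to 1850 genes had an unadjusted p under 0.05. Without the DsRed+ library of C, 1 gene was past it, none of these 3. Without the DsRed- library of C *Rbp7* was lost, and without both libraries of C *Rbp7* and *Foxa1* were, while in each of these fits 1 enterocyte marker was past it.

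Markers of other cells moved with the same libraries. The 5 M cell markers, of the gut epithelium over lymphoid tissue, summed to 2434, 1476 and 712 CPM in DsRed- cTEC of A, B and C, against 6.14 to 76.9 CPM in DsRed+ cTEC, with 0 past the quasi-likelihood test and 4 higher by the likelihood ratio test. The 8 tuft cell markers summed to 2275, 669 and 404 CPM in DsRed- cTEC, against 32.9 to 34.9 CPM in DsRed+ cTEC, with 4 past the quasi-likelihood test as higher, *Chat*, *Trpm5*, *Gfi1b* and *Alox5ap* (*Trpm5* and *Avil* when blocked on the experiment), and all 8 higher by the likelihood ratio test. The 16 enterocyte markers summed to 379, 216 and 165 CPM in DsRed- cTEC, against 10.7 to 20.5 CPM in DsRed+ cTEC. These sums had the same order of DsRed- libraries as the sum of the 7 intestinal genes, with A highest and C lowest. Single genes did not all have it. *Gp2* held most of the M cell sum, with 1942, 1022 and 669 CPM in DsRed- cTEC of A, B and C, while *Ccl20* and *Ccl9* were highest in B. So were *Apoc3* and *Fabp1* of the 7.

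The 12 macrophage markers summed to 138 to 866 CPM in DsRed- cTEC, against 39.3 to 107 CPM in DsRed+ cTEC, and none passed the quasi-likelihood test, while 1 was higher by the likelihood ratio test. *Lyz2* made up most of the sum in DsRed- cTEC, with 462, 803 and 128 CPM in DsRed- cTEC of A, B and C, against 19.1, 31.9 and 80.8 CPM in DsRed+ cTEC. Of the defining markers, *C1qa*, *Adgre1* and *Fcgr1* had 4.19 CPM or less in every library, and *C1qb*, *C1qc*, *Csf1r*, *Cd68*, *Mrc1* and *Ptprc* reached 10.8 to 23.5 CPM at their highest. The 8 endothelial markers ran the other way, at 47.6 to 96.5 CPM in DsRed- cTEC, against 577 to 4357 CPM in DsRed+ cTEC, with *Emcn* past the quasi-likelihood test as lower (*Emcn* and *Kdr* when blocked on the experiment) and 7 lower by the likelihood ratio test. Their highest sum was in the DsRed+ library of C, as were the highest levels of *Cd36*, *Scarb1*, *Fabp4*, *Rbp7* and *Gpihbp1*. The 8 fibroblast markers summed to 3697 to 4795 CPM in DsRed- cTEC, against 1243 to 1862 CPM in DsRed+ cTEC. None of these 8 passed the quasi-likelihood test, and 1 was higher by the likelihood ratio test. The 4 adipocyte markers summed to at most 2.54 CPM in any library. The 8 cTEC markers summed to 493 to 1027 CPM in DsRed- cTEC, against 5443 to 9378 CPM in DsRed+ cTEC, with *Prss16*, *Cxcl12* and *Psmb11* past the quasi-likelihood test as lower, where lower *Cxcl12* is what the sort selected. All 8 cTEC markers were lower by the likelihood ratio test. The 7 mTEC markers, of the medulla, overlapped in their sum, most of it *Ccl21a*, *Krt5* and *Krt14*, at 7074 to 10588 CPM in DsRed- cTEC and 3167 to 13344 CPM in DsRed+ cTEC. None of the 7 passed the quasi-likelihood test and 1 was higher by the likelihood ratio test, *Cd80*, with 6.70, 14.9 and 1.82 CPM in DsRed- cTEC, against 0.0189, 0 and 0 CPM in DsRed+ cTEC. None of 7 thymocyte and 4 epithelial markers tested passed the quasi-likelihood test. The part of these other cells in the levels of the members was not tested.

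**Figure D4:**
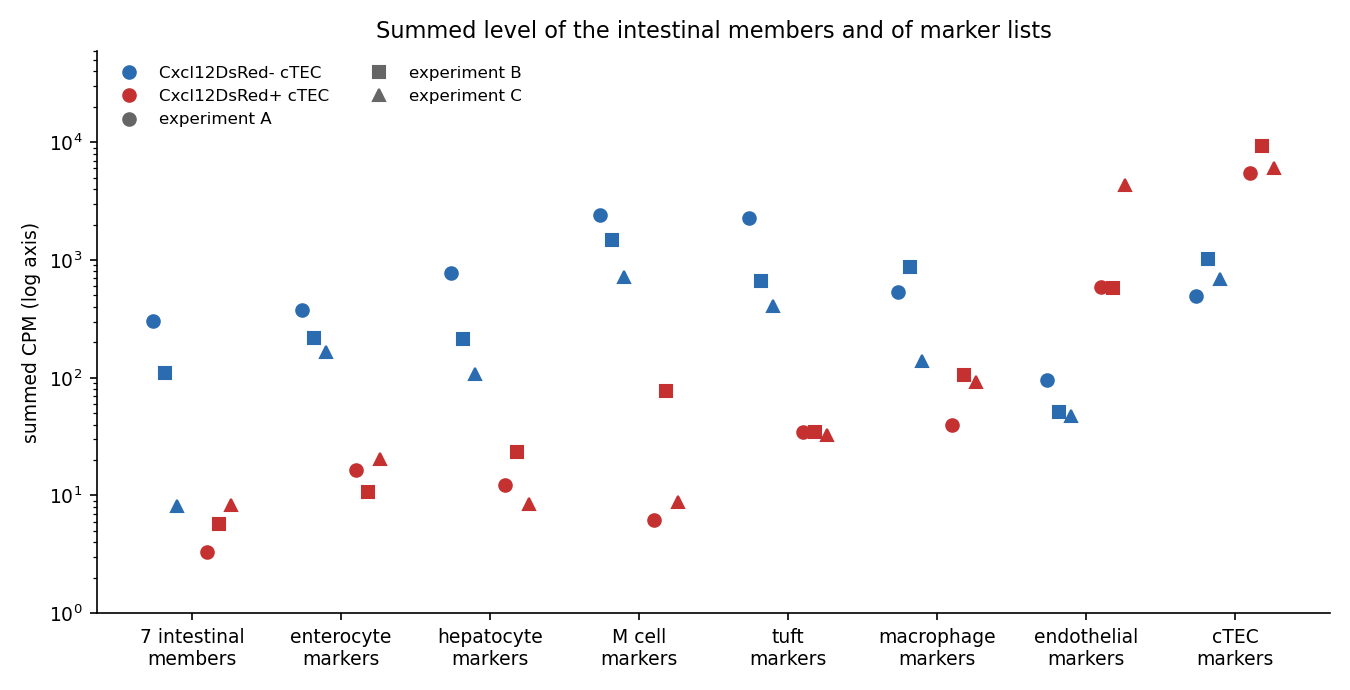
Summed CPM on a log axis of the 7 intestinal genes and of 7 marker lists, with DsRed- cTEC (blue) left of DsRed+ cTEC (red). A point is a library and its shape the experiment. The blue points of enterocyte, hepatocyte, M cell and tuft markers lie above the red ones with A highest, and the blue point of C overlaps the red ones for the 7 intestinal genes, at 8.19 CPM.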

How the data were processed

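The authors sequenced poly(A) RNA of sorted cTEC after SMARTer Ultra Low Input amplification on an Illumina NovaSeq. Trimmomatic 0.36 for trimming, STAR 2.7.3a for alignment to mm10 and HTSeq for counting are named in the submitters' notes or the methods, and the authors deposited unadjusted counts per gene. Neither annotation release nor strand use was given in the sources used here. The 92 spike-in entries (0 counts), 5 HTSeq summaries and the DsRed entry entered neither library sizes nor tests. Reads in no gene came to 5.87% to 9.35% of the counts in genes. Symbols, coordinates and exon lengths came from GENCODE M21 (GRCm38), which held 37693 of the IDs.

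The tests used R 4.3.3 and edgeR 4.0.16: filterByExpr at a minimum count of 10, TMM, and the quasi-likelihood test over 15576 genes with Benjamini-Hochberg adjustment at 0.05. The likelihood ratio test, DESeq2 1.42.0, limma 3.58.1 with voom, other scalings, other filters, the replicate block and leaving out libraries or experiments were alternatives. The fit was tested on simulated data. Members and gene lists were chosen with earlier results of these data known. The text names all members, the factors *Hnf4a*, *Hnf4g* and *Cdx2*, of each lipid or enterocyte list the genes past the threshold or the 2 with the smallest p, abundant markers, and the closest patterns. Other genes, such as *Fabp4*, *Fabp5*, *Cdhr2*, *Cideb*, *Soat2*, *Fgg*, *Cd80* and those at or near 0 or beside a member, were chosen after their values were seen. A further factor is not reported here.

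Libraries of a shared experiment were taken as pairs, as labelled, for the ratios within an experiment. The main test compared the subsets without these pairs, and only the fits with the replicate block used them. Within pairs, the correlation over genes of the deviations from the subset mean was −0.00208 (A), 0.0698 (B) and 0.0560 (C). No 2 libraries were duplicates (chi-square per degree of freedom of at least 165). The study calls the 3 libraries of a subset independent biological replicates, and the mice behind each are not stated. Intervals are exact (Clopper-Pearson) on counts and, like floors of 3 counts, leave out all error but that of counting, since reads copied by PCR are no separate molecules. Plots used matplotlib 3.10.9.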

Additional observations from a re-analysis of the deposited data

How the results depend on the processing

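Of all genes, 97 were past the threshold, against 880 by the likelihood ratio test, 1081 by DESeq2 (532 genes without an adjusted p), 1060 by the likelihood ratio test with the replicate block, 4 by limma voom, 168 with no filter, and 0, 0 and 35 without experiment A, B or C. With the replicate block in the quasi-likelihood test 73 passed, 40 of them among the 97. Leaving out 1 library gave 0 to 139 genes (0 without the *Cxcl12*DsRed- or *Cxcl12*DsRed+ library of A or B, 1 without the *Cxcl12*DsRed+ library of C; 1460 to 1850 of all genes had an unadjusted p under 0.05 in these fits). Of the members, 1 passed, *Apoc3*, against 3 by the likelihood ratio test and by DESeq2 (*Apoa1*, *Apoa4* and *Apoc3*), 3 by the likelihood ratio test with the replicate block (*Apoa4*, *Apoc3* and *Fabp1*), 0 with the replicate block in the quasi-likelihood test, 0 by limma voom, 0 without any one experiment and 0 to 1 without 1 library. RLE, library totals, no filter and a mean of 1 CPM left *Apoc3* as the only member past it. The log2 fold change of *Apoc3* ran over 8.79 to 9.85 in 18 alternatives, that of *Mttp* over 0.73 to 3.25, and that of *Fabp1* over 3.77 to 8.02, with no change of direction, while *Apoe* ran over −0.07 to 0.47. *Apoa1* could be fitted in 15 of the 18 (5.03 to 10.07) and *Apoa4* in 17 (5.98 to 10.20). In the others too few libraries with enough counts for the filter were left, though a remaining library could hold many. *Apob* and *Fabp2* were not tested in the main fit, because too few libraries held enough counts for the filter. Low counts limit every ratio that rests on 1 to 3 counts in *Cxcl12*DsRed+ cTEC.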
